A study of Rattus norvegicus with 23 samples.

Results

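Messenger RNA levels of the muscle atrophy ubiquitin ligases and of the FoxO transcription factors were examined in rat gastrocnemius, the large muscle of the calf. The set held 10 genes, chosen by symbol from the 18903 named genes of the deposited count table: Fbxo32, Trim63, Foxo1, Foxo3, Foxo4, Fbxo30, Fbxo40, Fbxo21, Nedd4 and Traf6. All 10 were found and all 10 passed the filter on low counts.

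Muscle loses protein largely through the ubiquitin-proteasome system, in which an E3 ligase attaches ubiquitin to a chosen substrate and the proteasome then degrades it. FoxO factors are held in the cytoplasm when insulin and IGF1 activate Akt, and when that signal falls they enter the nucleus and raise the transcription of Fbxo32 (atrogin-1) and Trim63 (MuRF1). Glucocorticoids, inflammation, fasting and loss of the nerve supply raise the same ligases, and both are widely used as markers of atrophy.

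The muscle came from Wistar rats that ate chow or a high-fat, high-sugar diet (HFHS) for 14 weeks from 4 weeks of age, at 30 °C, and that were fasted for 2 h before sacrifice. Polyadenylated RNA was sequenced with 1 library per rat from 11 females (5 on chow, 6 on HFHS) and 12 males (6 on each diet), each group named by sex and diet (Female Chow and so on). Female rats of the study had their ovaries removed at 12 weeks of age and drank estradiol from then on, but some were sham-operated, and which females these were is not in the labels. Males had no such operation described, so that sex cannot be told apart from the surgery and the estradiol.

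Counts of named genes per library ranged from 21152221 to 51305283. The diet of 3 females (205, 224 and 225, by animal number) is given one way in the column codes and the other way in the sample titles, and the codes were used here. Under the codes, Cyp1a1 lay at 0 CPM (counts scaled to library size with TMM) in each Female Chow library and between 0.425 and 3.49 CPM in the Female HFHS libraries. In males, whose diets are headed the opposite way in a picture of the study, Cyp1a1 lay between 0 and 0.0339 CPM in Male Chow and between 0.136 and 2.21 CPM in Male HFHS, and the deposited codes were used. Acta1 and Ckm, markers of skeletal muscle, were high in all libraries, with Acta1 group means between 66080 and 75070 CPM. Slow fiber markers summed to 542 CPM in Female Chow 205 and 789 CPM in Male Chow 111, against 5613 CPM or more in every Female HFHS and Male HFHS library. These were single low rats, as the group medians were 11930 CPM in Female Chow, 13360 CPM in Female HFHS, 10710 CPM in Male Chow and 9145 CPM in Male HFHS. Hepatocyte markers, most of which muscle should lack, summed to between 291 and 558 CPM in Female Chow and between 42.3 and 490 CPM in Female HFHS. In Male Chow that sum lay between 38.8 and 81.0 CPM and in Male HFHS between 37.1 and 59.3 CPM, and 22 of the 23 markers tested were lower in males. Most of the male sums was 1 marker, Tf, with means of 38.6 CPM in Male Chow and 38.7 CPM in Male HFHS. Alb averaged 242 CPM in Female Chow, 108 CPM in Female HFHS, 5.39 CPM in Male Chow and 1.26 CPM in Male HFHS. The median log2 difference of the markers by sex was -4.81.

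One promoter is shown because it holds letters of a forkhead site and of a glucocorticoid receptor half-site side by side. The promoter table of RefSeq (build GRCr8) held 7 of the 10 genes, so that Fbxo32, Foxo3 and Traf6 were not searched. Each promoter ran from 250 bases before the start to 50 bases after it, and was searched on both strands for the forkhead letters GTAAACA, the insulin response letters CAAAACA and the glucocorticoid receptor half-site letters AGAACA. Trim63 was the only one of the 7 that held any of them. Its promoter lies at chr5:151816986-151817285 on the + strand, and the capitals mark the half-site (TGTTCT, the reverse complement of AGAACA) followed directly by the forkhead letters (TGTTTAC, the reverse complement of GTAAACA).
Trim63 promoter: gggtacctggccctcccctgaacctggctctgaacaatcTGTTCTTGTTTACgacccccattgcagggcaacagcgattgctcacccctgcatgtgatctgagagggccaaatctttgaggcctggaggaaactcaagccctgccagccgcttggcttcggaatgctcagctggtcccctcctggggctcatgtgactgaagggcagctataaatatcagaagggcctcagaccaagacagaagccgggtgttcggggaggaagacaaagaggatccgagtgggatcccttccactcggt
The half-site lay at -211 to -206 and the forkhead letters at -205 to -199 from the start. Among 33469 promoters of the same length, 3.78% held the forkhead letters, 20.7% the half-site and 6.28% the insulin response letters. Both the forkhead letters and the half-site stood in 309 promoters (0.923%), and they stood directly side by side as in Trim63 in 2 of them. In cultured cells, FOXO1 and the glucocorticoid receptor are known to activate the MuRF1 promoter together. A match of letters is a description and does not show binding in these rats.

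No gene of the set passed the test in any of the 7 comparisons made (edgeR's quasi-likelihood test, Benjamini-Hochberg adjusted p under 0.05 over 13365 genes). By sex, 0 of 10 were called, where 8.97% of all genes were. For HFHS against chow, 0 of 10 were called in females (background 0.015%), 0 in males (0.0224%) and 0 over both sexes (0.0524%). The interaction of sex and diet called 0 of 10 (background 0%), the sex difference on chow 0 (1.72%) and the sex difference on HFHS 0 (4.83%). At an unadjusted p under 0.05 the counts were 4 by sex (23.5% of all genes), 4 by sex on HFHS (19.9%), 2 by diet over both sexes (9.77%) and 1 by diet in males (7.91%), with 0 by diet in females (6.96%), 0 by sex on chow (11.9%) and 0 for the interaction (4.88%). DESeq2 also called 0 of 10 in each comparison, with 12.1% of all genes called by sex and 7.58% by sex on HFHS, and limma-voom called 0 of 10 with 10.2% and 5.05%. The comparisons share rats and are not independent of each other.

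**Figure D1:**
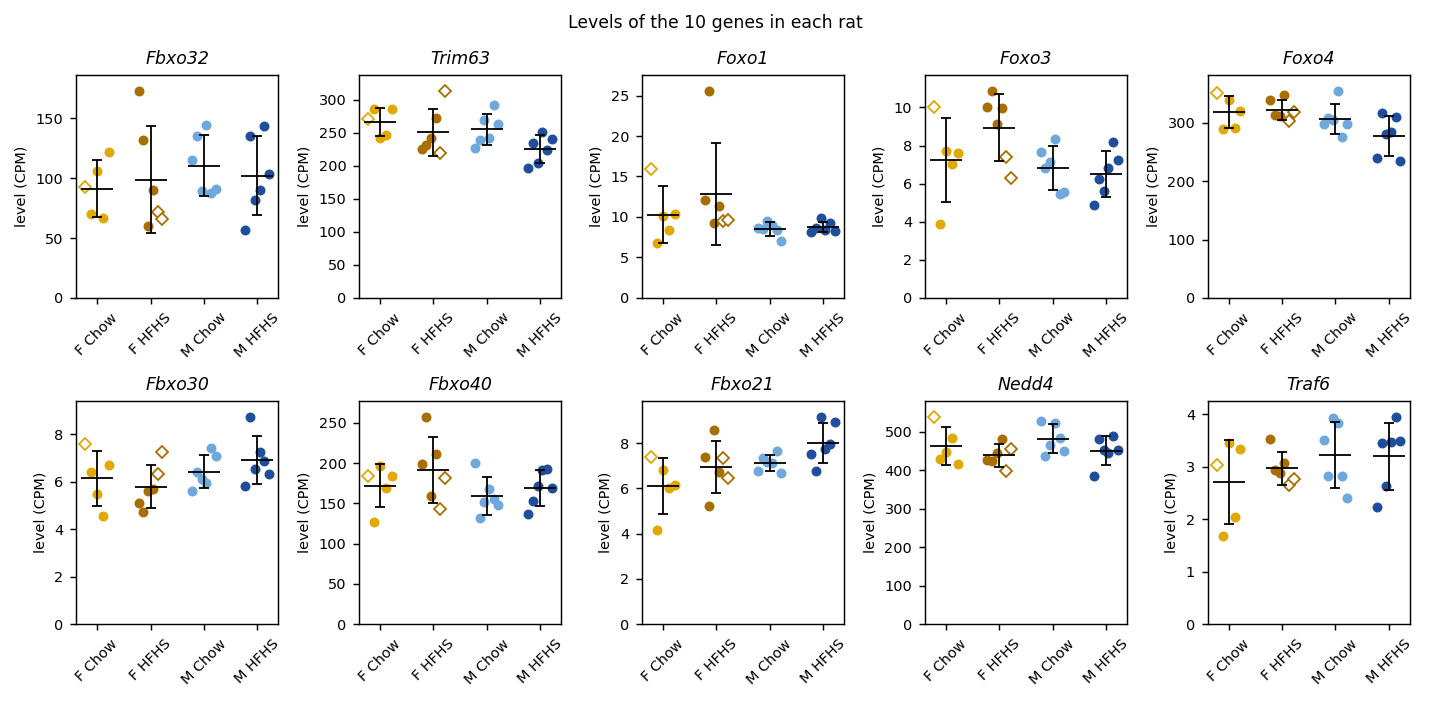
Level of each gene (CPM) in each rat, by group (F, female; M, male); bars are the group mean ± SD and open diamonds are the 3 females whose diet differs between column code and title. The groups overlap in all panels, and Foxo1 in Female HFHS 202 stands at 25.6 CPM.

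Of the FoxO factors, Foxo1 is a main driver of atrogin-1 and MuRF1 transcription. In Female Chow it measured 15.9 (205), 6.72 (213), 10.1 (214), 8.37 (228) and 10.3 CPM (229), and in Female HFHS it ranged from 9.25 to 25.6 CPM with a median of 10.5 CPM. In Male Chow it ranged from 7.0 to 9.45 CPM (median 8.56 CPM) and in Male HFHS from 8.14 to 9.88 CPM (median 8.56 CPM). The highest values were those of the females 202 and 205, and the male libraries lay within the range of the females. Within-group SD was 6.31 CPM in Female HFHS and 0.658 CPM in Male HFHS.

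By sex, Foxo1 was lower in males by a log2 difference of -0.41 (SE 0.15, 95% interval -0.73 to -0.10, edgeR adjusted p = 0.0948), which did not pass. On HFHS the difference was -0.55 (SE 0.21, edgeR adjusted p = 0.139) and on chow -0.28 (SE 0.22, edgeR adjusted p = 0.667), or -0.07 without Female Chow 205. Foxo1 on HFHS minus chow was 0.32 in females (interval -0.14 to 0.78) and 0.05 in males (interval -0.40 to 0.49). The female value was 0.01 without rat 202 and 0.70 by the titles.

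Foxo3, the FoxO factor best known for driving both ubiquitin ligases and autophagy genes, measured 10.03 (205), 3.86 (213), 7.70 (214), 7.04 (228) and 7.60 CPM (229) in Female Chow. It ranged from 6.31 to 10.9 CPM in Female HFHS (median 9.55 CPM), from 5.43 to 8.32 CPM in Male Chow (median 6.99 CPM) and from 4.88 to 8.21 CPM in Male HFHS (median 6.53 CPM). Among Female HFHS, 224 and 225 were the lowest, at 7.39 and 6.31 CPM, and the other 4 lay above the highest Male HFHS rat. The log2 difference by sex was -0.27 (SE 0.13, edgeR adjusted p = 0.199), and on HFHS it was -0.46 (SE 0.18, edgeR adjusted p = 0.139). On chow it was -0.08 (SE 0.19), smaller than its error.

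Foxo4, a FoxO factor of the same Akt-controlled family, measured 352 (205), 289 (213), 340 (214), 292 (228) and 320.2 CPM (229) in Female Chow. It ranged from 303 to 348 CPM in Female HFHS (median 316 CPM), from 276 to 355 CPM in Male Chow (median 302 CPM) and from 234 to 317 CPM in Male HFHS (median 283 CPM). The lowest values were Male HFHS 101 and 106, and the groups overlapped. By sex, Foxo4 differed by -0.13 (SE 0.06, edgeR adjusted p = 0.13) and on HFHS by -0.21 (SE 0.08, edgeR adjusted p = 0.106). In males on HFHS against chow it was -0.14 (interval -0.30 to 0.01).

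Whether the FoxO genes passed for the sex difference on HFHS turned on the source of the diet label. Their direction did not, since all 3 were lower in males by the codes, by the titles and with the conflicting rats left out. Of the rats with conflicting labels, 205 had Cyp1a1 at 0 CPM, as had every other Female Chow rat by the codes. Cyp1a1 lay at 0.931 CPM in 224 and 3.49 CPM in 225. By this gene these rats sort as in the codes, and the labels were not tested otherwise. By the titles, 205 joins Female HFHS and 224 and 225 leave it, and 3 genes of the set passed: Foxo1 at -0.76 (edgeR adjusted p = 0.00886), Foxo3 at -0.62 (edgeR adjusted p = 0.0113) and Foxo4 at -0.26 (edgeR adjusted p = 0.0328). That setting called 10.1% of all genes for this comparison. Leaving out the 3 rats, Foxo1 (-0.72, edgeR adjusted p = 0.0382) and Foxo3 (-0.61, edgeR adjusted p = 0.0344) passed and Foxo4 did not (-0.23, edgeR adjusted p = 0.111), against 5.58% of all genes. Over all settings tried, the adjusted p ranged from 0.00886 to 0.416 for Foxo1, from 0.0113 to 0.375 for Foxo3 and from 0.0328 to 0.769 for Foxo4. The 0.769 came with the male diets exchanged, which sets the rats coded Male Chow against Female HFHS and so is a different comparison. With the hepatocyte marker level as a covariate, Foxo4 was at -0.19 (edgeR adjusted p = 0.436). By the titles and without rat 202, an alternative added after the data were seen, the 3 FoxO genes still passed, with Foxo1 at -0.45 (edgeR adjusted p = 0.026), where 7.94% of all genes were called. By the codes and without rat 202, Foxo1 on HFHS was at -0.23 (edgeR adjusted p = 0.416). By sex over both diets, Foxo1 passed by the titles (-0.43, edgeR adjusted p = 0.025, 10% of all genes called), and Foxo3 passed without Female Chow 213 (-0.35, edgeR adjusted p = 0.0427, 7.87%).

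**Figure D2:**
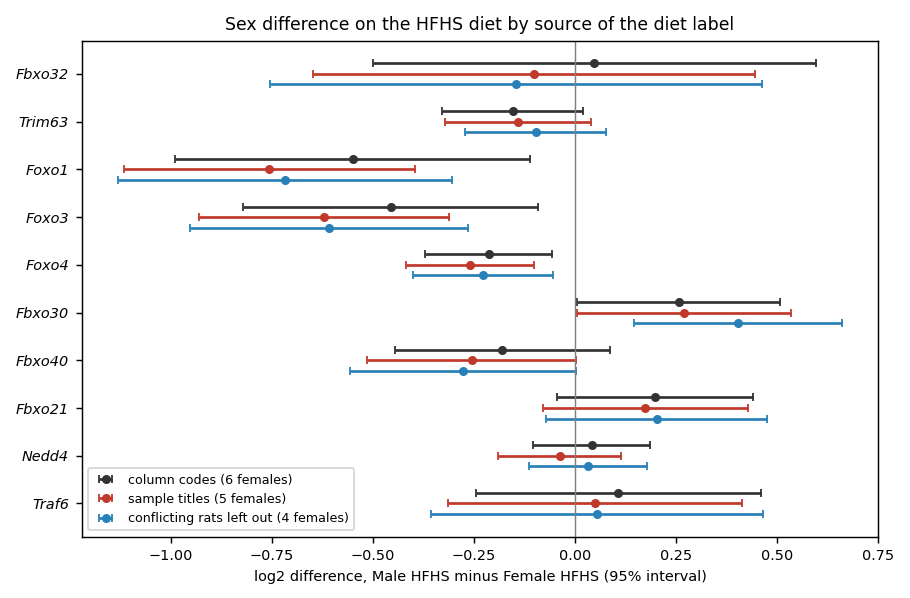
Log2 difference of Male HFHS minus Female HFHS with its 95% interval for each gene, by the column codes, by the sample titles and with the 3 rats of conflicting diets left out. Foxo1 moves from -0.55 by the codes to -0.76 by the titles, and Foxo3 from -0.46 to -0.62.

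The hepatocyte marker level moved with sex, with a mean log2 CPM from -2.48 to 2.91 in females and from -2.96 to -0.211 in males. With that level as a covariate, the difference by sex was -0.80 for Foxo1 (edgeR adjusted p = 0.175), -0.28 for Foxo3 (edgeR adjusted p = 0.699) and -0.10 for Foxo4 (edgeR adjusted p = 0.772). That setting called 0.299% of all genes by sex, against 8.97% without the covariate. Because the level moved with sex, it cannot separate sex from that level for these genes. With the slow fiber level as a covariate, Foxo1 by sex was -0.41 (edgeR adjusted p = 0.0657) and Foxo3 -0.28 (edgeR adjusted p = 0.123). In bulk muscle, fewer cells of a type and less RNA per cell cannot be told apart.

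Fbxo32, the F-box protein atrogin-1 that brings substrates to an SCF ligase, had the largest SD of log2 CPM within groups of the set, 0.466, against a median of 0.204 over all genes tested. It measured 92.3 (205), 69.8 (213), 106 (214), 66.4 (228) and 122 CPM (229) in Female Chow, and ranged from 60.3 to 173 CPM in Female HFHS (median 80.8 CPM). In Male Chow it ranged from 87.5 to 145 CPM (median 103 CPM) and in Male HFHS from 57.1 to 144 CPM (median 96.8 CPM). The highest rat, Female HFHS 201, and the lowest, Male HFHS 101, lay 3.02-fold apart, and the 4 groups overlapped. Foxo1 had a wider ratio of highest to lowest rat, 3.80. Fbxo32 differed by sex by 0.16 (interval -0.24 to 0.56), by diet in females by 0.11 (interval -0.46 to 0.69) and by diet in males by -0.12 (interval -0.66 to 0.43), each well within its error. As a fold, the interval of the diet difference in females ran from 0.725 to 1.61.

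Trim63, the RING-finger ligase MuRF1, which acts on thick filament proteins, varied much less, with a within-group SD of 0.15. Its values in Female Chow were 272 (205), 286 (213), 243 (214), 247 (228) and 286 CPM (229). It ranged from 220.0 to 313 CPM in Female HFHS (median 237 CPM), from 227 to 292 CPM in Male Chow (median 252 CPM) and from 196 to 251 CPM in Male HFHS (median 230 CPM). The HFHS males were the lowest group by mean, at 225 ± 21.0 CPM (SD, n = 6) against 255 ± 23.9 CPM (SD, n = 6) on chow, and overlapped all others. The diet difference in males was -0.18 (SE 0.08, interval -0.36 to -0.01, edgeR adjusted p = 0.622). Over both sexes it was -0.14 (SE 0.06, edgeR adjusted p = 0.482), and neither passed. By sex it was -0.11 (SE 0.06, edgeR adjusted p = 0.289).

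Fbxo40, an F-box protein of muscle that targets IRS1, measured 184 (205), 128 (213), 197 (214), 169 (228) and 184 CPM (229) in Female Chow. It ranged from 142 to 257 CPM in Female HFHS (median 190.3 CPM), from 132 to 199.9 CPM in Male Chow and from 136 to 193 CPM in Male HFHS. Female HFHS 202 was the highest and Female Chow 213 the lowest. By sex the difference was -0.15 (interval -0.34 to 0.05, edgeR adjusted p = 0.354).

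Fbxo21 (SMART), another F-box protein induced by FoxO in mouse muscle, ranged from 4.14 to 7.40 CPM in Female Chow, from 5.20 to 8.60 CPM in Female HFHS, from 6.68 to 7.66 CPM in Male Chow and from 6.75 to 9.13 CPM in Male HFHS. Mean level was highest in Male HFHS, at 8.0 ± 0.896 CPM (SD, n = 6). The difference by sex was 0.21 (SE 0.09, interval 0.04 to 0.39, edgeR adjusted p = 0.123) and by diet over both sexes 0.18 (SE 0.09, edgeR adjusted p = 0.509). Fbxo21 overlaps Nos1 on the same strand in the table, so that reads of the shared stretch cannot be told apart, and its value is uncertain.

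Fbxo30 (MUSA1), the F-box ligase held down by BMP signaling in mouse muscle, ranged from 4.56 to 7.57 CPM in Female Chow, from 4.74 to 7.27 CPM in Female HFHS, from 5.62 to 7.41 CPM in Male Chow and from 5.82 to 8.71 CPM in Male HFHS. It was the only gene of the set whose log2 difference by sex on HFHS had an interval wholly above 0, at 0.26 (0.005 to 0.507, edgeR adjusted p = 0.24). That is one of the 4 genes at an unadjusted p under 0.05 in the comparison, against 19.9% of all genes.

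Nedd4, a HECT ligase of membrane proteins, was the steadiest, with a within-group SD of 0.119 and a range over all rats of 385 to 537 CPM. It differed by sex by 0.05 (interval -0.06 to 0.15) and by diet in males by -0.10 (interval -0.24 to 0.05). Traf6, a RING ligase that builds signaling chains upstream of NF-kappaB and FoxO activation, had the fewest counts, between 60 and 185 per library, and ranged from 1.69 to 3.94 CPM. By sex it differed by 0.18 (interval -0.08 to 0.43, edgeR adjusted p = 0.413).

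**Figure D3:**
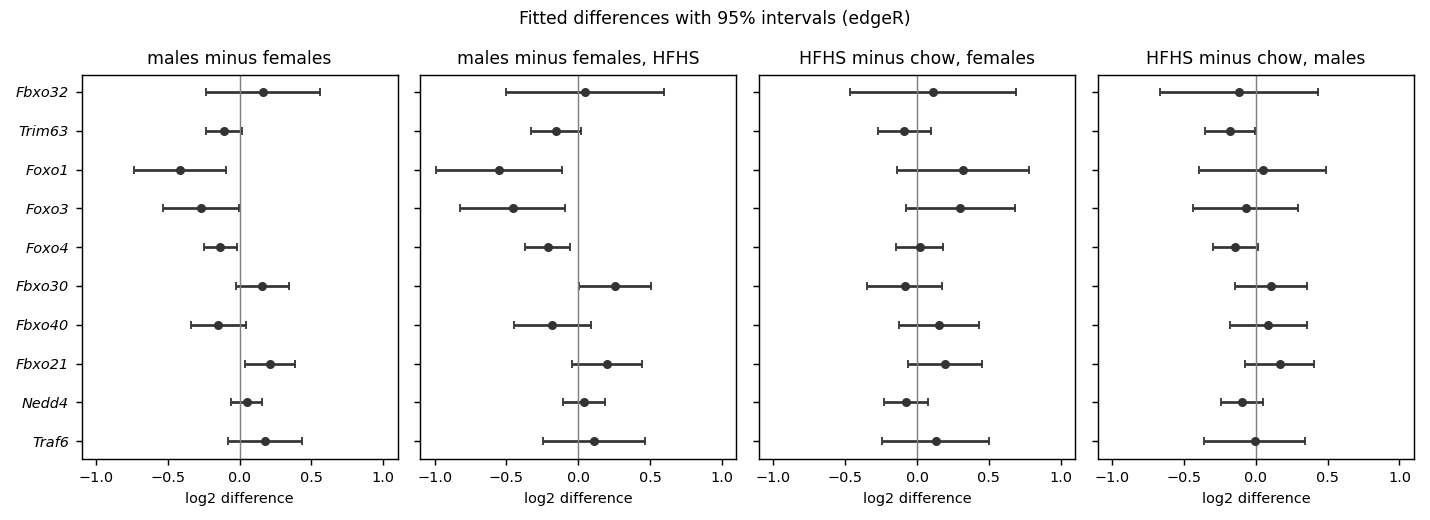
Fitted log2 differences with their 95% intervals for the 10 genes in 4 comparisons (males minus females over both diets and on HFHS, and HFHS minus chow in each sex). The interval of each diet difference includes 0 apart from Trim63 in males (-0.36 to -0.01).

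Single rats stood at the extremes of several genes. Female Chow 213 had the lowest level of all 23 rats for 5 of the 10 genes (Foxo1, Foxo3, Fbxo40, Fbxo21 and Traf6), and Female HFHS 202 had the highest for 3 (Foxo1, Foxo3 and Fbxo40). Male HFHS 101 had the lowest for 3 (Fbxo32, Trim63 and Nedd4). The levels of different genes were not compared with each other, since no transcript length was available.

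How the genes varied together was described by Pearson's r of log2 CPM over the 23 rats after each group mean was subtracted. The points share library and depth, and no test was made. Foxo3 and Traf6 had the highest r, 0.79 (rho 0.75), and 0.75 without the 2 rats farthest out in Foxo3. Foxo3 and Fbxo40 had r = 0.70, Foxo1 and Fbxo40 0.66, and Foxo1 and Foxo3 0.65. Fbxo32 was highest with Traf6, at 0.66, and had r = 0.62 for Foxo3, 0.60 for Foxo4, 0.54 for Fbxo40 and 0.49 for Foxo1. Trim63 did not follow the FoxO factors, with r = -0.23 for Foxo3, 0.01 for Foxo4 and -0.19 for Foxo1. Fbxo32 and Trim63 had r = -0.15, and Trim63 was highest with Fbxo30, at 0.65. Of the 45 pairs, 14 lay above 0.5 and the median was 0.28.

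**Figure D4:**
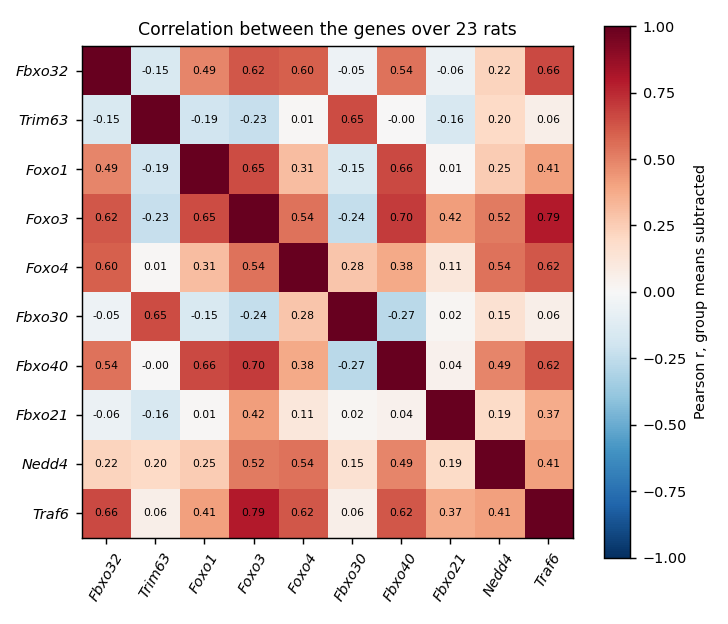
Pearson correlation of log2 CPM between the genes over 23 rats, group means subtracted. Fbxo32 stands with the FoxO genes, Fbxo40 and Traf6, whereas Trim63 stands apart from them and is highest with Fbxo30 (0.65).

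**Figure D5:**
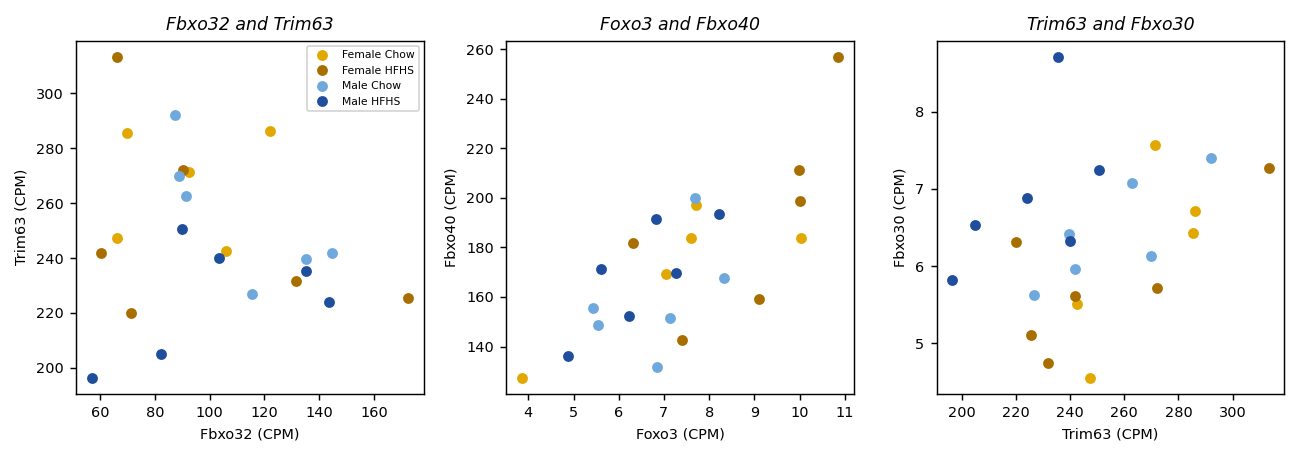
Levels (CPM) of 3 pairs of genes in each rat, coloured by group. Fbxo32 and Trim63 show no common trend (r = -0.15 within groups), and Foxo3 and Fbxo40 move together (r = 0.70).

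Among all tested genes that carry a symbol and average at least 1 CPM, those most like Fbxo32 over the 23 rats, by r without subtracting the group means, were Lonp1 (r = 0.82), H6pd (0.79), Mapt (0.76), Klhl38 (0.75) and Rrm2b (0.75). For Trim63 they were Clk1 (0.86), Psmc6 (0.85), Prpf38a (0.80), Per1 (0.79) and Tra2b (0.78). Per1, a core clock gene, ranged from 11.9 to 144 CPM over the rats. The 2 lists share no gene.

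The wider pathway was described by lists written from general knowledge, but chosen with earlier results of these data known. Their counts by sex stand beside 8.97% of all genes called as a description only. Of 27 other ubiquitin ligases of muscle tested, 1 was called by sex, Trim54 (MuRF3, lower in males, -0.17, edgeR adjusted p = 0.0176), and the median log2 difference was 0.01 against -0.0003 over all genes. Trim54 measured 606 ± 54.5 CPM (SD, n = 6) in Female HFHS and 499 ± 43.2 CPM (SD, n = 6) in Male HFHS (-0.28, edgeR adjusted p = 0.0119). On chow it measured 555 ± 33.6 CPM (SD, n = 5) in females and 529 ± 13.9 CPM (SD, n = 6) in males (-0.07, edgeR adjusted p = 0.741). Of 19 genes of the SCF core and ubiquitin supply, 1 was lower in males, Cdc34 (an E2 enzyme, -0.15, edgeR adjusted p = 0.0167), with a median of -0.05. On HFHS 1 of the 19 was called, Ube2j1, lower in males (-0.24, edgeR adjusted p = 0.04355, 4.83% of all genes called). Ube2j1 lost its call without each of 17 single rats. Of 13 deubiquitinating enzymes, 0 were called by edgeR, DESeq2 or limma-voom and 2 had an unadjusted p under 0.05 (median -0.04).

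Of 26 other FoxO targets of muscle tested, 1 rose and 4 fell in males against females (8.97% of all genes were called), with a median of -0.02. Cdkn1a (p21, a cell cycle inhibitor) was at -1.47 (SE 0.27, edgeR adjusted p = 0.00124). On HFHS its means were 63.0 ± 49.1 CPM (SD, n = 6) in females and 15.1 ± 4.54 CPM (SD, n = 6) in males (-2.06, edgeR adjusted p = 0.00497). On chow they were 49.7 ± 16.5 CPM (SD, n = 5) and 27.1 ± 7.46 CPM (SD, n = 6), which did not pass (-0.87, edgeR adjusted p = 0.356). Gadd45a, a stress gene raised by denervation, was at -0.84 (SE 0.15, edgeR adjusted p = 0.00101), Ctsl (a lysosomal protease) at -0.29 (edgeR adjusted p = 0.00248) and Klf15 (a glucocorticoid-induced factor) at -0.24 (edgeR adjusted p = 0.0302). Bnip3l, a mitophagy receptor, was higher in males at 0.12 (edgeR adjusted p = 0.0433). With the hepatocyte covariate, a setting that called 0.299% of all genes by sex, only Cdkn1a of these kept its call (-2.32), while the others were at -1.05 (Gadd45a), -0.43 (Ctsl), -0.25 (Klf15) and 0.12 (Bnip3l). Klf15 also lost its call without Female Chow 205 or 229, Female HFHS 210 or 225, or Male HFHS 103 or 106, and Bnip3l lost its call without each of 13 single rats (edgeR adjusted p up to 0.0783).

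Of 39 regulators of FoxO and of the ligases tested, 1 rose and 4 fell in males (8.97% of all genes were called, median 0.02). Nfkb1, a subunit of NF-kappaB, was higher by 0.20 (edgeR adjusted p = 0.00483). Myog (myogenin, which raises both ligases after denervation in mouse) was at -0.58 (SE 0.11, edgeR adjusted p = 0.00142), Mstn (myostatin, an inhibitor of muscle growth) at -0.80 (SE 0.23, edgeR adjusted p = 0.0359), Ikbkb (an NF-kappaB kinase) at -0.21 (edgeR adjusted p = 0.0259) and Pik3r1 (a subunit of PI3 kinase) at -0.33 (edgeR adjusted p = 0.0356). With the hepatocyte covariate (0.299% of all genes called) only Myog of these kept its call (-0.87), while Nfkb1 was at 0.14, Mstn at -1.02, Ikbkb at -0.10 and Pik3r1 at -0.39. Ikbkb lost its call without Female Chow 229, Mstn without Female Chow 205, Female HFHS 202, Male Chow 112, 114 or 119, or Male HFHS 103 or 105, and Pik3r1 without each of 12 single rats (edgeR adjusted p up to 0.0799). Of 17 substrates of the ligases, 1 was called, Mybpc1 (slow myosin-binding protein C), higher in males at 0.39 (edgeR adjusted p = 0.00632), and it did not pass with the hepatocyte covariate (0.28). Nor did Trim54 (-0.19) and Cdc34 (-0.09). By diet, 0 of the 139 genes of these 6 lists were called in females and 0 in males with edgeR, DESeq2 or limma-voom, and 13 and 7 had an unadjusted p under 0.05 in edgeR (6.96% and 7.91% of all genes).

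Among markers of other cells, 6 of 7 tested endothelial genes were higher in males over both diets (8.97% of all genes called). With edgeR, 0 were called on chow (1.72% of all genes) and 5 on HFHS (4.83%). The interaction called 0, and the median log2 difference by sex was 0.21 on chow and 0.45 on HFHS. By diet only Cldn5 was called, at 1.0 in males (edgeR adjusted p = 0.0455) and 0.83 over both sexes (edgeR adjusted p = 0.0058). The summed level of the 7 endothelial genes was 226 to 279 CPM in Female Chow and 266 to 324 CPM in Male Chow, which overlapped. It was 197 to 278 CPM in Female HFHS and 301 to 371 CPM in Male HFHS, which did not overlap. By sex, 0 of the 8 slow fiber markers were called with edgeR, DESeq2 or limma-voom, with 0 at an unadjusted p under 0.05. Of the 6 fast and whole fiber markers, 0 were called with edgeR or limma-voom, 1 with DESeq2 and 1 at an unadjusted p under 0.05 in edgeR. The part of the endothelial difference in the values of the 10 genes was not tested.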

How the data were processed

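RNA of gastrocnemius from 23 rats was sequenced as directional poly-A libraries, 1 per rat. The authors used fastp for trimming, STAR 2.7.6a for alignment (rn6) and SeqMonk for counting over exons, and deposited raw counts per gene. The annotation release and the strand setting of the counting are not given in the sources used here. The 16 entries without a gene name (at most 0.000294% of counts) were left out. Counts were fitted in R 4.3.3 with edgeR 4.0.16 (filterByExpr, TMM, 4 group means, robust quasi-likelihood test, Benjamini-Hochberg threshold 0.05 over 13365 genes). Levels are CPM (log2 with prior count 2). DESeq2 1.42.0 and limma-voom (limma 3.58.1) were alternatives, with others named in the closing section. On simulated counts for 13365 genes, a log2 change of 0.5 was recovered for 82.1% of genes by sex, 53.7% for the female diet contrast, 71.6% for the male one and 20.9% for the interaction, and a change of 0.3 for 44.8%, 13.4%, 19.4% and 7.46%. The changed genes were picked at random among those averaging at least 1 CPM. In each comparison 67 were changed by 0.3, 67 by 0.5 and 66 by 1. In the data, the diet test called only 2 genes in females and 3 in males. With fewer genes called the adjusted threshold is stricter, so these shares can overstate the recovery of the diet contrasts. Fbxo32, Foxo1, Foxo3 and Traf6 varied more within groups (SD of log2 CPM 0.466, 0.366, 0.335 and 0.306) than the median gene (0.204). Recovery was not measured for these genes. Named are the 10 genes, list genes past the threshold and the 5 genes most like Fbxo32 and Trim63. The genes and lists were chosen with earlier results of these data known. Rats are separate animals, so the error is that between animals. Sequences came from RefSeq, whose promoter build differs from rn6, and no coordinates were mixed.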

Additional observations from a re-analysis of the deposited data

Results flagged for a closer look

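Of 40 gene and group combinations examined, 1 held a rat far from the others: Foxo1 in Female HFHS 202, at 25.6 CPM against 9.25 to 12.1 CPM in the other 5 rats, a gap of 0.827 of the group's range. Chance gives about 1 such group in 20.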

How the results depend on the processing

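The set's counts of 0 moved under few settings. By sex the count was 1 by the title diets and 0 to 1 when each rat was left out, and on HFHS it was 3 by the titles, 2 without the rats of conflicting diets and 3 by the titles without rat 202. With a replicate block of the title numbers, 0 genes of the set passed in each comparison. The title numbers do not pair the rats (32 same-number pairs had a median r of -0.0294, from -0.274 to 0.263).

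Differences near 0 changed sign. Fbxo32 by sex on HFHS was -0.102 by the titles, -0.146 without the conflicting rats, -0.01 by the titles without rat 202 and -0.076 to 0.287 with each rat left out. Foxo3 by sex on chow was 0.039 by the titles and 0.056 without the conflicting rats (-0.242 to 0.056 with each rat left out). Fbxo32 by diet in females was -0.024 in limma-voom (-0.118 to 0.243 left out), and by diet in males -0.239 to 0.005 left out. By diet in males Foxo1 was -0.063 with the hepatocyte covariate (-0.004 to 0.079 left out), and Foxo3 was 0.01 in limma-voom (-0.148 to 0.001 left out). The cause of these changes was not tested. With the male diets exchanged, Trim63 by diet over both sexes was 0.046, against -0.135 (interval -0.261 to -0.009) by the codes. That exchange sets the female diet difference against the male one, so that it measures the interaction (-0.093 by the codes) and not the same difference.

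Counts of calls by sex among the lists ranged from 0 to 2 for the other ligases, 0 to 1 for the SCF core, 0 to 1 for the deubiquitinating enzymes, 1 to 6 for the FoxO targets, 1 to 8 for the regulators and 0 to 6 for the substrates.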
